A study of Mus musculus with 35 samples.

Results

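Open chromatin was followed across the windows of 4 mouse genes whose proteins join endothelial cells to each other: Cdh5, Pecam1, Cldn5 and Esam. The members are all ATAC-seq peaks whose midpoint lies in one of 4 fixed windows of build mm9 around these genes, on chromosome 8 for Cdh5, 11 for Pecam1, 16 for Cldn5 and 9 for Esam. The windows span 110 kb at Cdh5, 160 kb at Pecam1 and 50 kb each at Cldn5 and Esam. They number 58 of the 76018 peaks in the table, 21 at Cdh5, 21 at Pecam1, 8 at Cldn5 and 8 at Esam. Peaks are numbered within each window from its low-coordinate end. The windows can reach into neighbouring genes. In RefSeq's order of protein-coding genes on GRCm38.p6, Cdh5 lies between Cdh11 and Bean1, Pecam1 between Tex2 and Milr1, Cldn5 between Septin5 and Cdc45, and Esam between Msantd2 and Vsig2. No mm9 gene annotation was used, so exons, introns and start sites are not assigned to peaks.

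ATAC-seq cuts accessible DNA with the Tn5 transposase, and the count in a peak measures how often it was cut. Each library came from a sorted pool of 1500 cells of 23GFP transgenic mouse embryos, a genotype that all groups share. The groups, with 4 libraries each unless stated, were E8.5 hemogenic endothelium (HE) and E8.5 endothelial cells (EC); E9.5 pro-HSC/HPC (3 libraries), E9.5 HE and E9.5 EC; and E10.5 pre-HSC II, E10.5 pre-HSC I, E10.5 HE and E10.5 EC. HSC and HPC stand for hematopoietic stem and progenitor cells. The tissue is labelled PAS+VU for the E8.5 and E9.5 samples and AGM+VU for the E10.5 samples, so day and tissue cannot be told apart between E9.5 and E10.5. The E9.5 samples carry a tissue label that names E8.5, and their day was taken from the sample titles. The sources used here do not say how the cells were gated.

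Endothelial cells hold together through adherens and tight junctions at their lateral borders. VE-cadherin, the product of Cdh5, forms the adherens junctions, and claudin-5, the product of Cldn5, seals tight junctions, best known from the blood-brain barrier. PECAM-1 (CD31) and ESAM are immunoglobulin-family adhesion molecules of the same borders that are also found on platelets and on subsets of blood cells. Hemogenic endothelium is the endothelial population from which blood stem and progenitor cells emerge by an endothelial-to-hematopoietic transition, during which cells leave the vessel wall.

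Totals per library ran from 456770 to 7415315 counts in peaks, and pre-HSC II libraries 1 to 3 were the shallowest, with 456770, 668956 and 701221. Libraries 2 and 3 of pre-HSC I differed less than sampling noise allows: their chi-square over its degrees of freedom was 0.461, and that of the 50 other within-group pairs was 2.59 to 8.04. They were counted as 1 sample, here library 2, which leaves 3 for that group. E9.5 EC libraries 3 and 4 and E9.5 HE library 4 stood apart with 6470, 7280 and 9126 counts in 1 chromosome X peak, against at most 1282 in any other library. E8.5 libraries 1 and 2 of HE and EC, and E10.5 HE libraries 1 and 4, were shallower than the rest of their groups. So were E9.5 EC libraries 3 and 4 (1170513 and 3179759 counts) and E9.5 HE libraries 3 and 4 (1839721 and 2876084). The E9.5 libraries high in the chromosome X peak are thus among the shallower ones. Pro-HSC/HPC library 3 (1232426) and E10.5 EC library 1 (2117133) were the shallowest of their groups. Levels are given as CPM, each count divided by the TMM-adjusted library size and scaled to a common total. A peak was called changed at an edgeR quasi-likelihood adjusted p under 0.05 over the 67108 peaks tested. Nothing ties the pools to separate litters, so p-values measure only how these pools vary, which may be technical.

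The promoter table used here matched 1 of the 4 genes, Cldn5. The 250 bases before the RefSeq start site are shown because the peaks of the Cldn5 window changed in opposite directions and this is the stretch from which the gene is started. They lie on GRCm38.p6 at chr16:18776597-18776846, plus strand, and were not placed on the mm9 peaks. Capitals mark 2 CCAAT boxes, written ATTGG on this strand, with first bases 133 and 163 counted from the 5′ end.
Cldn5 promoter: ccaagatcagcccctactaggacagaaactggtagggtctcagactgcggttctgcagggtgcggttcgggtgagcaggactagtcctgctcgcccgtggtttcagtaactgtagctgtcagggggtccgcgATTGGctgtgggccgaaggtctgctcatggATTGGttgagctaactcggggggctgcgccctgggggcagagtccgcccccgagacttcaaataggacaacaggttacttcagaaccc
A CCAAT box on either strand occurred in 33.8% of the 32851 RefSeq promoters over the same 250 bases, and 2 or more in 10.1%. The letters GGAA (93.4% of promoters), GATAA (22.6%), TGTGGT (14%) and TATAAA (12.4%), searched on both strands, did not occur in this window. A letter match is a description, not a binding site.

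In each window 1 wide peak held the most signal. These leading peaks were Cdh5 peak 7 (chr8:106618748-106621517), Pecam1 peak 20 (chr11:106648224-106651392), Cldn5 peak 4 (chr16:18775598-18777911) and Esam peak 2 (chr9:37334214-37339210). They are the 4 members of 2 kb or more in width, 6.9% of the members, against 2.9% of all peaks. Esam peak 2 held 66.6% to 75.3% of the window's counts as group means in all 9 groups. The leading peak of Cdh5 held 12% ± 5.11 of its window's counts in E10.5 pre-HSC II (SD, n = 4), 36.5% ± 2.01 in pre-HSC I (n = 3), 35.0% ± 9.47 in HE and 44.4% ± 4.19 in EC (n = 4 each). That share lay between 39.4% and 52.7% in the E8.5 and E9.5 groups.

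**Figure D1:**
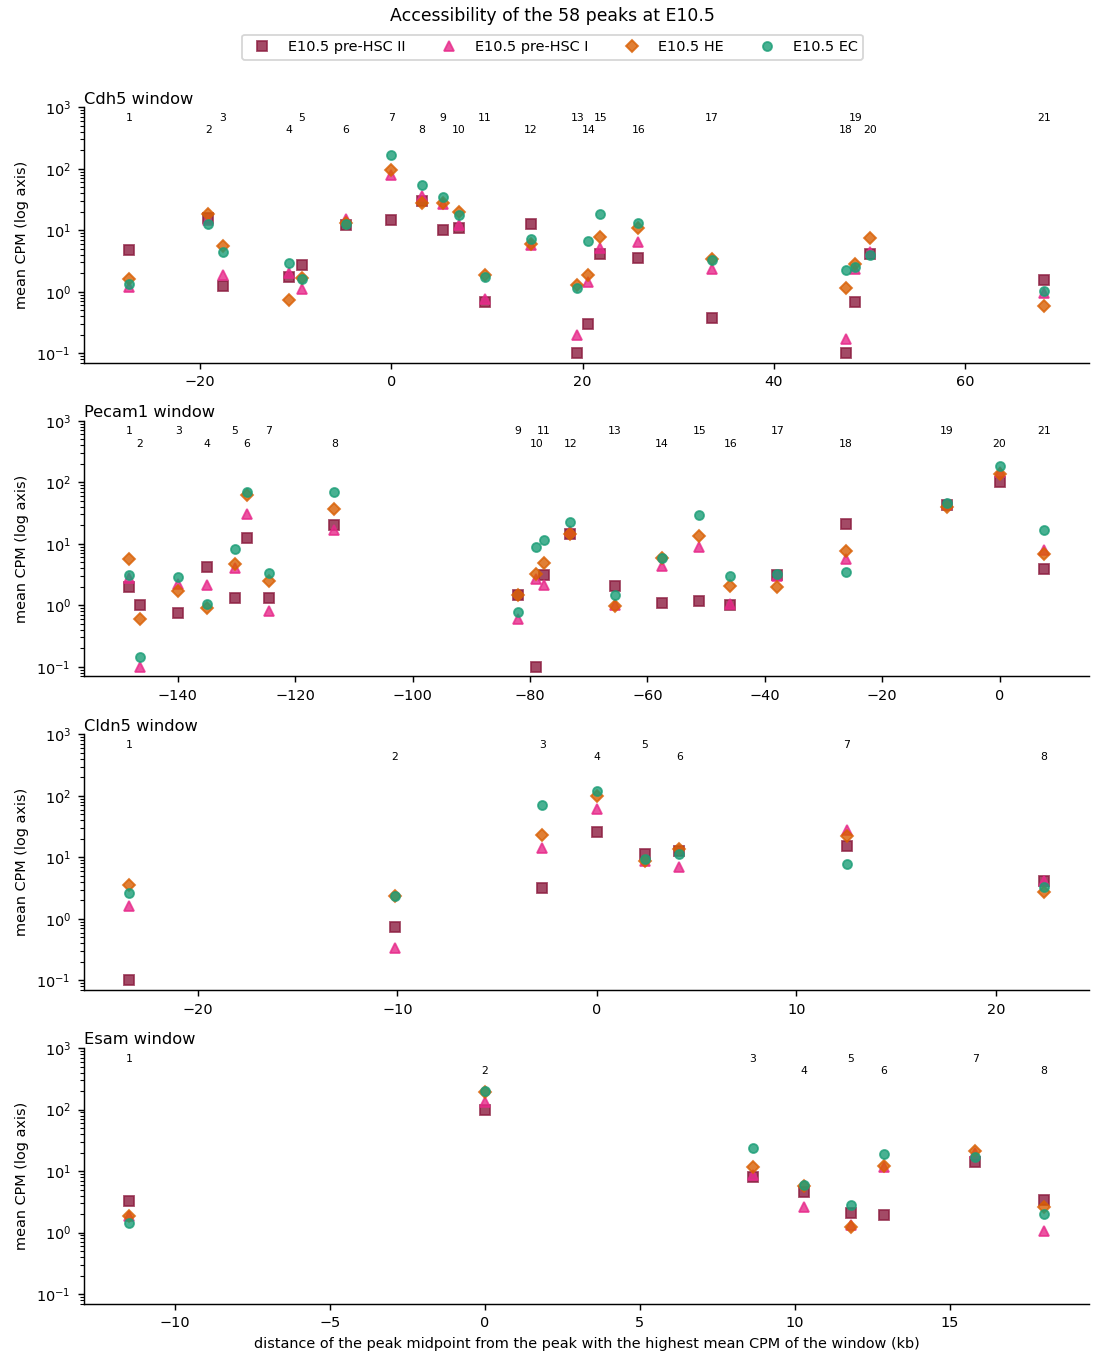
Mean CPM (log axis) of each of the 58 peaks in the 4 E10.5 groups against the distance in kb of its midpoint from the leading peak of its window; numbers are peak numbers, and group means below 0.1 CPM are drawn at 0.1. At Cdh5 peak 7 the pre-HSC II mean (14.8 CPM) lies below the other 3 groups (78.7 to 169 CPM), while at Pecam1 peak 19 the 4 means lie between 40.3 and 46.6 CPM.

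Of the 58 members, 51 passed the filter on low counts; Cdh5 peaks 5, 11, 13 and 21, Pecam1 peaks 2 and 3 and Cldn5 peak 1 did not. Over 15 comparisons 25 members (49%) were called at least once and 26 were not, against 35.9% of all peaks tested called at least once. The group mean was lowest in E10.5 pre-HSC II for 23 of the 51 tested members (45.1%), against 27.9% of all peaks tested. It was lowest in E10.5 EC or E8.5 HE for 0 members, against 7.26% and 10.3% of all peaks.

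Cdh5 peak 7, at the adherens-junction cadherin, was among the most accessible members in EC and HE and had its lowest group mean in pre-HSC II. At E10.5 it had 13.9, 10.0, 14.3 and 20.8 CPM in pre-HSC II, 68.5, 108 and 60.1 CPM in pre-HSC I, 48.3, 138, 149 and 44.3 CPM in HE, and 96.6, 189, 253 and 136 CPM in EC. No pre-HSC II library reached the lowest library of another E10.5 group. Of all peaks tested, 22.8% did not overlap between pre-HSC II and EC and 14.2% between pre-HSC II and pre-HSC I. The share was 16.2% for pre-HSC I and 6.76% for HE against EC of that day. Cdh5 peak 7 was 11-fold lower in pre-HSC II than in EC (log2 fold change -3.46 ± 0.33 SE, edgeR adjusted p 5.27e-12) and 5.16-fold lower in pre-HSC II than in pre-HSC I (-2.37 ± 0.34, edgeR adjusted p 9.26e-06). Both calls held in all 15 alternatives run for each, with ranges of -3.76 to -2.77 against EC and -2.63 to -1.77 against pre-HSC I. In a pool, fewer cells with an open peak and a less open peak in each cell cannot be told apart.

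The same peak was lower by smaller amounts in the other blood-forming groups. Pre-HSC I had 2.14-fold less than EC (-1.10 ± 0.29, edgeR adjusted p 0.0129) with overlapping libraries. That call was lost without EC library 3, pre-HSC I library 1 or pre-HSC I library 4 (edgeR adjusted p 0.0735 to 0.109). At E9.5 the pro-HSC/HPC libraries had 100.1, 140.4 and 67.8 CPM, against 201, 224, 184 and 197 CPM in HE and 245, 239.9, 210.3 and 253 CPM in EC. All 3 lay below every HE and EC library, and the difference from EC was called (-1.20 ± 0.29, edgeR adjusted p 0.00261). The difference from HE was not called, and 18.2% of all peaks tested did not overlap between pro-HSC/HPC and HE. Over days the peak was 2.09-fold higher in E9.5 EC than in E8.5 EC, which had 90.2, 106, 109 and 146 CPM (1.07 ± 0.26, edgeR adjusted p 0.00467). Without E8.5 libraries 1 and 2 that difference was 0.87 (edgeR adjusted p 0.171).

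In HE, Cdh5 peak 7 was 2.08-fold lower at E10.5 than at E9.5 (-1.05 ± 0.26, edgeR adjusted p 0.0373). E10.5 HE libraries 1 and 4, the shallow ones, had 48.3 and 44.3 CPM, and libraries 2 and 3 had 138 and 149 CPM. The call was lost without either shallow library or without any 1 of the 4 E9.5 HE libraries (edgeR adjusted p 0.0522 to 0.242), and under 10 of 17 alternatives in all. Without both shallow libraries the difference was -0.49 (edgeR adjusted p 0.783). E8.5 HE had 133, 180.1, 201 and 200.4 CPM.

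Of the peaks near peak 7, peak 9, 5.42 kb away, was also called lower in pre-HSC II, against EC (-1.85 ± 0.41, edgeR adjusted p 0.000399) and against pre-HSC I (-1.43 ± 0.45, edgeR adjusted p 0.0452), while peaks 8 and 6 were not called. The call of peak 9 against pre-HSC I was lost under 11 of 15 alternatives, among them all 3 other ways of scaling or testing (RLE, cyclic loess and DESeq2) and the removal of pre-HSC I library 1 or 2 or pre-HSC II library 1, 3 or 4 (adjusted p 0.0574 to 0.399), and that against EC held in all 15. Cdh5 peak 8 (chr8:106622640-106624017), 3.20 kb away, averaged 30.1 ± 7.74 CPM in pre-HSC II, 35.8 ± 18.8 CPM in pre-HSC I, 27.3 ± 19.3 CPM in E10.5 HE and 55.2 ± 26.7 CPM in E10.5 EC, and it was called in none of the 15 comparisons. Cdh5 peak 6, 4.76 kb on the other side, ranged over group means of 12.1 to 18.4 CPM and was likewise not called in any. Cdh5 peak 2 (chr8:106600648-106601343), also among the 3 least variable members averaging at least 10 CPM, was not called either. Its group means ran from 10.1 CPM in E9.5 EC to 18.1 CPM in E10.5 HE, with 15.6 CPM in pre-HSC II. Cdh5 peak 3 (chr8:106602259-106602801) was low throughout: it had 6.63, 2.61, 6.22 and 3.66 CPM in E8.5 HE and 0, 0, 0.757 and 1.06 CPM in E8.5 EC, which is 68 counts against 5. It was called higher in E8.5 HE (2.94 ± 0.80, edgeR adjusted p 0.039). The call held without HE library 2 and was lost without any other single E8.5 library (edgeR adjusted p 0.057 to 0.128) and without libraries 1 and 2 of both groups (edgeR adjusted p 0.631).

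The Cldn5 window, of the tight-junction claudin, held 2 peaks that changed in opposite directions. Peak 3 (chr16:18773375-18774661) lies 2.74 kb to the low-coordinate side of the leading peak, and peak 7 (chr16:18788531-18790060) lies 12.54 kb to the other side. Peak 3 was the most variable member averaging at least 10 CPM (SD of the 9 group means 1.54 on the log2 scale). Its mean was highest in E9.5 EC (109 CPM), followed by E8.5 HE (75.1 CPM) and E10.5 EC (71.5 CPM). Peak 7 was highest in E9.5 pro-HSC/HPC (59.5 CPM) and E9.5 HE (54.8 CPM), and its means were 11.8 CPM or less in the 3 EC groups and E8.5 HE.

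Peak 3 had 13.6, 18.5 and 15.4 CPM in E9.5 pro-HSC/HPC, 44.4, 47.3, 36.5 and 32.9 CPM in E9.5 HE and 102, 96.1, 113 and 127 CPM in E9.5 EC. These 3 groups did not overlap. Of all peaks tested, 13.7% did not overlap between E9.5 HE and EC, 18.2% between pro-HSC/HPC and HE and 26.8% between pro-HSC/HPC and EC. Peak 3 was 2.69-fold lower in HE than in EC (-1.43 ± 0.29, edgeR adjusted p 0.00176), 2.57-fold lower in pro-HSC/HPC than in HE (-1.36 ± 0.35, edgeR adjusted p 0.0238) and 6.92-fold lower in pro-HSC/HPC than in EC (-2.79 ± 0.35, edgeR adjusted p 5.75e-08). The step from HE to pro-HSC/HPC was lost under 6 of 15 alternatives (edgeR adjusted p 0.0529 to 0.476). These were every library thinned to the smallest total and the removal of HE library 1 or 2 or of any 1 of the 3 pro-HSC/HPC libraries.

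At E10.5 peak 3 had 3.47, 0, 4.78 and 4.45 CPM in pre-HSC II, 15.5, 12.2 and 14.3 CPM in pre-HSC I, 6.45, 32.7, 34.8 and 18.5 CPM in HE and 44.3, 80.7, 82.3 and 78.5 CPM in EC. Within the day, the EC libraries lay above all others and the pre-HSC II libraries below all others. The peak was 21.2-fold lower in pre-HSC II than in EC (-4.41 ± 0.44, edgeR adjusted p 2.54e-11) on 12 counts against 1055. It was 5.14-fold lower in pre-HSC I than in EC (-2.36 ± 0.36, edgeR adjusted p 1.82e-05) and 2.94-fold lower in HE than in EC (-1.56 ± 0.30, edgeR adjusted p 0.00167). Pre-HSC II was also lower than pre-HSC I (-2.05 ± 0.53, edgeR adjusted p 0.0137), a call lost under 6 of 15 alternatives: without pre-HSC I library 1 or pre-HSC II library 2, with cyclic loess, thinned, and in both fits of only the groups compared (edgeR adjusted p 0.0533 to 0.153). Without the shallow HE libraries 1 and 4, HE against EC was -1.10 (edgeR adjusted p 0.0974), and with only these groups in the fit it was -1.52 (edgeR adjusted p 0.0731).

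Peak 7 went the other way. It had 69.7, 74.8 and 33.9 CPM in E9.5 pro-HSC/HPC, 55.9, 53.9, 51.3 and 57.9 CPM in E9.5 HE and 18.8, 17.5, 5.30 and 5.63 CPM in E9.5 EC. The EC libraries lay below all others. The peak was 4.28-fold higher in HE than in EC (2.10 ± 0.34, edgeR adjusted p 0.000102) and 4.69-fold higher in pro-HSC/HPC than in EC (2.23 ± 0.36, edgeR adjusted p 7.2e-06). E8.5 HE had 7.23, 10.4, 12.8 and 15.2 CPM and E8.5 EC had 2.89, 7.84, 8.71 and 7.80 CPM. In HE the peak was therefore 4.62-fold higher at E9.5 than at E8.5 (2.21 ± 0.34, edgeR adjusted p 6.49e-05), a call that held under every alternative run.

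The E9.5 libraries with the high chromosome X peak are part of these groups. EC libraries 3 and 4 had 5.30 and 5.63 CPM at peak 7, and EC libraries 1 and 2 had 18.8 and 17.5 CPM. Without the 3 libraries, HE against EC was 1.57 at peak 7 (edgeR adjusted p 0.138) and -1.19 at peak 3 (edgeR adjusted p 0.273), the same directions with neither call. HE libraries 1 to 3 still lay above EC libraries 1 and 2 at peak 7 and below them at peak 3. The part of the high peak, or of the lower depth of these libraries, in these differences was not tested.

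At E10.5 peak 7 had 10.4, 20.03, 16.7 and 14.1 CPM in pre-HSC II, 29.1, 38.6 and 17.3 CPM in pre-HSC I, 11.3, 33.4, 28.7 and 14.5 CPM in HE and 9.42, 7.54, 8.64 and 5.56 CPM in EC. EC again lay below all other libraries of the day, but the difference of pre-HSC II from EC was not called. The peak was 3.67-fold higher in pre-HSC I than in EC (1.87 ± 0.38, edgeR adjusted p 0.000963) and 2.95-fold higher in HE than in EC (1.56 ± 0.36, edgeR adjusted p 0.00844), the second call being lost without HE library 2 (edgeR adjusted p 0.06). Thinning all libraries to the smallest total ended both calls (edgeR adjusted p 0.133 for pre-HSC I and 0.136 for HE). With only HE and EC in the fit, HE against EC was 1.58 (edgeR adjusted p 0.0824), and with the replicate number as a block in that fit it was 1.53 (edgeR adjusted p 0.0158).

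Peaks 3 and 7 together give a ratio within each library that needs no scaling. Peak 7 held 77.5% ± 7.80 of the counts of the pair in E9.5 pro-HSC/HPC (SD, n = 3), 57.8% ± 4.52 in E9.5 HE and 9.94% ± 6.43 in E9.5 EC (n = 4 each). At E10.5 it held 82.2% ± 11.9 in pre-HSC II (n = 4), 65.3% ± 10.6 in pre-HSC I (n = 3), 50.8% ± 9.0 in HE and 10.55% ± 4.81 in EC (n = 4 each). At E8.5 it held 13.5% ± 4.72 in HE and 14.9% ± 9.56 in EC (n = 4 each). The E8.5 groups overlapped, while the lowest library of any non-EC group at E9.5 or E10.5, E10.5 HE library 4 with 43.9%, lay above the highest EC library of those days, E10.5 EC library 1 with 17.5%. In pre-HSC II the share rests on few counts. The 4 libraries held 2, 0, 4 and 6 counts at peak 3. At peak 7 they held 6, 16, 14 and 19. Peak 7 itself averaged 15.3 CPM in pre-HSC II and 28.3 CPM in pre-HSC I. The ratio was formed after the 2 peaks were seen to differ and has no test.

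**Figure D2:**
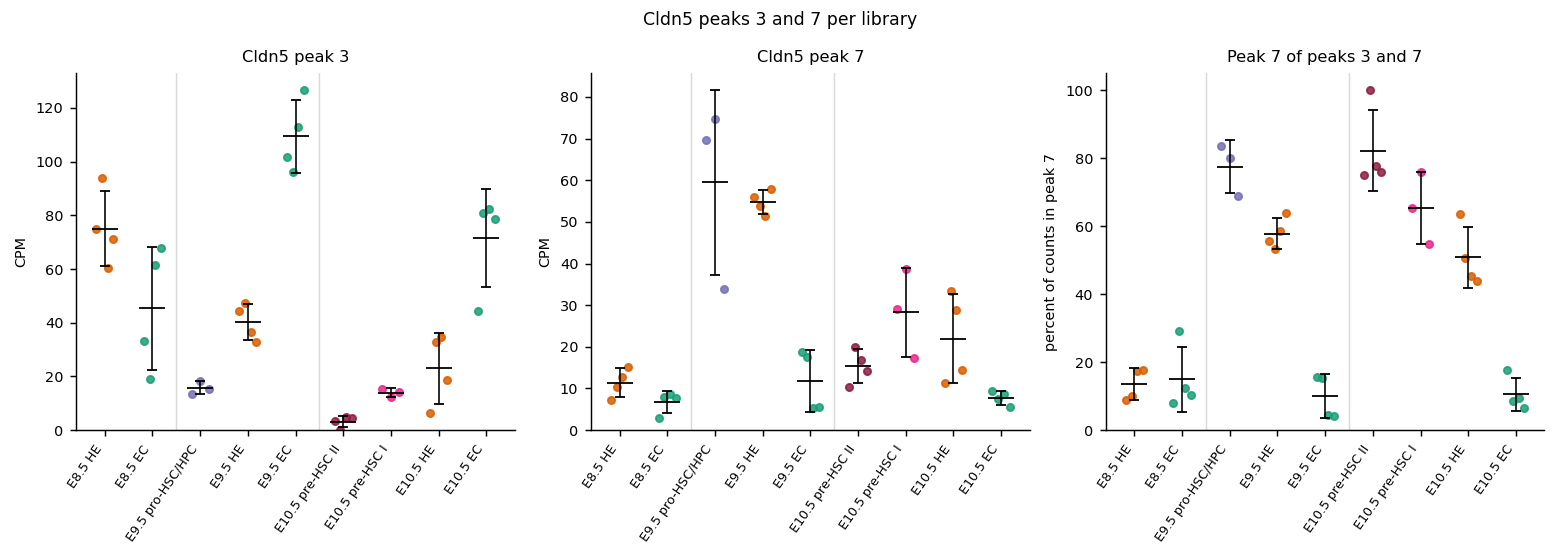
CPM per library at Cldn5 peak 3 and peak 7, and the percent of their summed counts that fell in peak 7, for the 9 groups; points are libraries, bars the mean ± SD. The share averages 13.5% and 14.9% in E8.5 HE and EC, is at most 17.5% in any E9.5 or E10.5 EC library and at least 43.9% in every other library of those days.

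The leading peak of the window, Cldn5 peak 4, was lower in pre-HSC II and less so in pre-HSC I. It had 31.2, 21.3, 22.7 and 29.7 CPM in pre-HSC II, 84.0, 59.2 and 41.1 CPM in pre-HSC I, 62.9, 113, 153 and 64.5 CPM in E10.5 HE and 77.3, 121, 173 and 112 CPM in E10.5 EC. Pre-HSC II lay below every other E10.5 library and was 4.62-fold below EC (-2.21 ± 0.30, edgeR adjusted p 6.73e-08). The other called differences were pre-HSC II against pre-HSC I (-1.22 ± 0.32, edgeR adjusted p 0.0161), pre-HSC I against EC (-0.99 ± 0.29, edgeR adjusted p 0.0277) and E9.5 EC against E8.5 EC (1.02 ± 0.26, edgeR adjusted p 0.00709). The call against pre-HSC I was lost under 7 of 15 alternatives, among them RLE, cyclic loess and the removal of pre-HSC I library 1 or pre-HSC II library 2 (edgeR adjusted p 0.0562 to 0.199). That of pre-HSC I against EC was lost thinned and without EC library 3 or pre-HSC I library 2 or 4 (edgeR adjusted p 0.0727 to 0.214). That of E9.5 EC against E8.5 EC was lost thinned, without E8.5 libraries 1 and 2 and without the E9.5 libraries high in the chromosome X peak (edgeR adjusted p 0.0557 to 0.419). Unlike at peaks 3 and 7, E9.5 HE and E9.5 EC overlapped at peak 4, averaging 144 ± 22.5 and 135 ± 6.17 CPM (SD, n = 4 each).

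The Pecam1 window, of the adhesion molecule CD31, held peaks of several kinds. RefSeq's order on GRCm38.p6 continues after Pecam1 with Milr1, Polg2, Ddx5 and Cep95. Which gene each peak belongs to was not assigned, also for the leading peak 20, near the high-coordinate end of the window. Peak 20 was accessible in every group and had an SD of 0.33 over the 9 log2 group means. It had 101, 106, 103 and 96.5 CPM in pre-HSC II, 125, 186 and 124 CPM in pre-HSC I, 70.1, 157, 229 and 98.3 CPM in E10.5 HE and 130.03, 180.5, 261 and 172 CPM in E10.5 EC. Pre-HSC II was 1.83-fold lower than EC (-0.87 ± 0.25, edgeR adjusted p 0.0072), a smaller fold than the 11-fold at Cdh5 peak 7, and E9.5 EC was 1.67-fold higher than E8.5 EC (0.74 ± 0.25, edgeR adjusted p 0.0375). The first call was lost with cyclic loess, by DESeq2, thinned and with only the groups compared (adjusted p 0.0512 to 0.627). The second was lost under 9 of 17 alternatives, among them the removal of E8.5 libraries 1 and 2, of E8.5 EC library 1 or 2 alone, and of E9.5 EC library 1, 2 or 3 (edgeR adjusted p 0.0564 to 0.496). Peak 19 (chr11:106640083-106641604), 8.96 kb away, was the least variable member averaging at least 10 CPM: its 9 group means ran from 37.9 to 50.7 CPM, and it was called in no comparison.

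Pecam1 peak 6 (chr11:106520635-106522499) and peak 8 (chr11:106535827-106537158), at -128.24 kb and -113.32 kb from the leading peak, separated the groups more. Peak 6 had 10.4, 10.0, 19.1 and 10.4 CPM in pre-HSC II, 21.3, 42.1 and 29.8 CPM in pre-HSC I, 25.8, 76.3, 89.2 and 62.1 CPM in E10.5 HE and 38.2, 92.4, 90.1 and 63.0 CPM in E10.5 EC. It was 5.71-fold lower in pre-HSC II than in EC (-2.51 ± 0.36, edgeR adjusted p 1.79e-07) and held that call under every alternative run. Against pre-HSC I the difference of -1.33 ± 0.39 (edgeR adjusted p 0.034) was lost under 11 of 15 alternatives, among them the removal of pre-HSC I library 2 or 4 or of pre-HSC II library 1, 2 or 4 (edgeR adjusted p 0.055 to 0.157).

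Both peaks were more open in E8.5 HE than in E8.5 EC. Peak 6 had 59.1, 35.2, 73.6 and 62.5 CPM in HE and 20.2, 27.9, 18.6 and 28.4 CPM in EC, a 2.46-fold difference (1.30 ± 0.31, edgeR adjusted p 0.0141). Peak 8 had 33.2, 30.0, 29.9 and 34.7 CPM in HE and 13.0, 12.2, 12.9 and 16.7 CPM in EC (1.21 ± 0.31, edgeR adjusted p 0.0298). Neither peak overlapped between the groups, which also held for 11.9% of all peaks tested and for 6 of the 51 members. The call at peak 6 was lost without EC library 1 or 3 or HE library 3 (edgeR adjusted p 0.0618 to 0.0769), and on removing E8.5 libraries 1 and 2 the difference was 1.497 (edgeR adjusted p 0.246). The call at peak 8 was lost on removing E8.5 libraries 1 and 2 and on removing any single E8.5 library other than EC library 4 (edgeR adjusted p 0.0503 to 0.587).

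Peak 8 was highest in E10.5 EC, with 58.4, 74.2, 98.2 and 51.2 CPM, against 24.3, 7.51, 33.5 and 14.8 CPM in pre-HSC II, 20.7, 16.3 and 13.1 CPM in pre-HSC I and 16.1, 39.5, 46.8 and 45.1 CPM in E10.5 HE. All EC libraries lay above the other 3 groups. The difference of E10.5 HE from EC was not called in the main fit, which does not pair the pools by replicate number. The peak was 4.24-fold lower in pre-HSC I than in EC (-2.08 ± 0.34, edgeR adjusted p 5.9e-05) and 3.59-fold lower in pre-HSC II than in EC (-1.85 ± 0.33, edgeR adjusted p 1.26e-05). At E9.5 it was 2.73-fold lower in pro-HSC/HPC, with 11.2, 15.2 and 15.4 CPM, than in EC, with 36.6, 31.9, 40.6 and 41.5 CPM (-1.45 ± 0.34, edgeR adjusted p 0.00215). In EC it was 2.70-fold higher at E9.5 than at E8.5 (1.43 ± 0.31, edgeR adjusted p 0.00149), and 1.31 (edgeR adjusted p 0.0609) on the log2 scale without the shallow E8.5 libraries.

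Pecam1 peak 18 (chr11:106623274-106624069) was the one member called higher in pre-HSC II than in EC. It had 10.4, 23.8, 26.3 and 22.3 CPM in pre-HSC II, 3.87, 8.63 and 4.76 CPM in pre-HSC I, 8.86, 2.04, 5.35 and 14.5 CPM in E10.5 HE and 1.88, 4.96, 0.576 and 6.73 CPM in E10.5 EC. The difference from EC was 5.71-fold (2.51 ± 0.56, edgeR adjusted p 0.000479) on 77 counts against 54, and it held under every alternative run. At E9.5 the peak was also higher in pro-HSC/HPC, with 12, 8.31 and 10.8 CPM, than in EC, with 1.40, 1.72, 0 and 1.06 CPM (3.01 ± 0.64, edgeR adjusted p 0.000585). Thinning all libraries to the smallest total ended that second call (edgeR adjusted p 0.0982).

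Peak 15 (chr11:106598190-106599098) had 1.74, 0, 0 and 2.97 CPM in pre-HSC II, 7.10, 15 and 4.17 CPM in pre-HSC I, 5.64, 17.4, 19.4 and 11.3 CPM in E10.5 HE and 12.2, 44.4, 26.5 and 34.0 CPM in E10.5 EC. Its 4 pre-HSC II libraries held 5 counts in all, and it was called lower in pre-HSC II than in EC (-4.39 ± 0.69, edgeR adjusted p 1.52e-06). Peak 10 (chr11:106570631-106571120) held 0 counts in the 4 pre-HSC II libraries and 135 in E10.5 EC. Taking 3 counts for the whole group as the floor, it was at least 11.4-fold lower in pre-HSC II (edgeR adjusted p 0.000127). The floor covers counting error only, since the reads carry no molecular identifiers. It also takes counts as independent, which was not tested. Of counts from 10 to 49, 54.1% to 78.2% per library were even, so the bound may be too high.

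**Figure D3:**
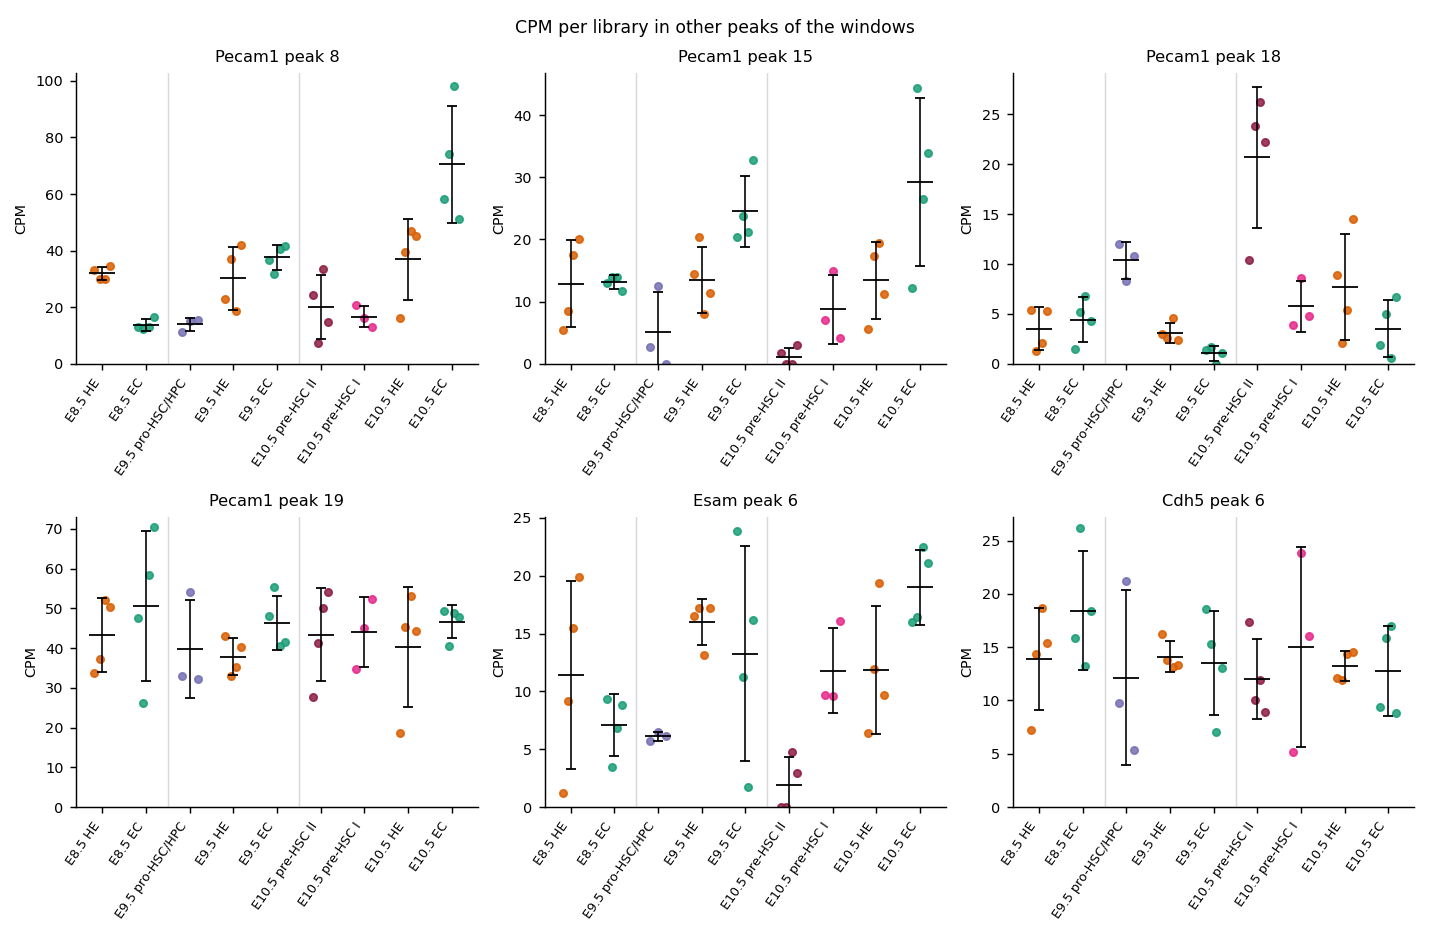
CPM per library at Pecam1 peaks 8, 15, 18 and 19, Esam peak 6 and Cdh5 peak 6 in the 9 groups; points are libraries, bars the mean ± SD. Pecam1 peak 18 is highest in pre-HSC II (20.7 CPM on average), Pecam1 peak 15 and Esam peak 6 are lowest there (1.18 and 1.94 CPM), and Pecam1 peak 19 and Cdh5 peak 6 vary little between groups.

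The Esam window, of a junctional adhesion molecule, was dominated by peak 2. It had 141, 63.9, 122 and 67.6 CPM in pre-HSC II, 172, 139 and 92.2 CPM in pre-HSC I, 158, 234, 292 and 79.8 CPM in E10.5 HE and 159, 217, 226 and 191 CPM in E10.5 EC. Pre-HSC II stayed below every EC library and overlapped pre-HSC I and HE. The difference from EC was 2.04-fold (-1.03 ± 0.25, edgeR adjusted p 0.00134), a call lost with cyclic loess and thinned (edgeR adjusted p 0.0998 and 0.214), and peak 2 was called in no other comparison.

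Esam peak 3 (chr9:37344891-37345806) was lower than in EC in pro-HSC/HPC, pre-HSC I and pre-HSC II. It had 6.80, 6.0 and 11.6 CPM in E9.5 pro-HSC/HPC, 26.7, 32.2, 16.0 and 14.9 CPM in E9.5 HE and 53.4, 57.6, 38.9 and 32.4 CPM in E9.5 EC. The 3 groups did not overlap, but HE library 2 (32.2 CPM) lay only just below EC library 4 (32.4 CPM). Between E9.5 HE and EC 13.7% of all peaks tested did not overlap, between pro-HSC/HPC and HE 18.2% and between pro-HSC/HPC and EC 26.8%. Esam peak 3 was 5.90-fold lower in pro-HSC/HPC than in EC (-2.56 ± 0.41, edgeR adjusted p 8.24e-06) and 2.95-fold lower in pro-HSC/HPC than in HE (-1.56 ± 0.41, edgeR adjusted p 0.0301). The second call was lost thinned and without HE library 1 or 2 or pro-HSC/HPC library 1 or 2 (edgeR adjusted p 0.0753 to 0.426). HE against EC at E9.5 was not called.

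At E10.5 Esam peak 3 had 17.4, 5.01, 2.39 and 7.42 CPM in pre-HSC II, 6.46, 13.7 and 5.95 CPM in pre-HSC I, 16.1, 7.49, 18.7 and 4.84 CPM in HE and 16.0, 29.2, 31.4 and 18.4 CPM in EC. It was lower than in EC in pre-HSC II (-1.67 ± 0.43, edgeR adjusted p 0.00228) and in pre-HSC I (-1.43 ± 0.41, edgeR adjusted p 0.0228). The pre-HSC II call was lost thinned and in both fits of only the groups compared (edgeR adjusted p 0.0509 to 0.376). The pre-HSC I call was lost thinned and without EC library 2 or 3 or pre-HSC I library 1 or 4 (edgeR adjusted p 0.0614 to 0.4). Esam peak 6 (chr9:37349096-37350082) had 0, 0, 4.78 and 2.97 CPM in pre-HSC II, 9.69, 9.65 and 16.1 CPM in pre-HSC I, 6.45, 11.9, 19.4 and 9.67 CPM in HE and 16.0, 16.5, 22.5 and 21.1 CPM in EC. At peak 6 pre-HSC II lay below the other 3 groups, 8.52-fold below EC (-3.09 ± 0.64, edgeR adjusted p 0.000169). Against pre-HSC I the difference was -2.40 ± 0.70 (edgeR adjusted p 0.0311), lost under 8 of 15 alternatives: without pre-HSC I library 1 or 4 or pre-HSC II library 1 or 2, with RLE, with cyclic loess and in both fits of only the groups compared (edgeR adjusted p 0.0582 to 0.152).

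**Figure D4:**
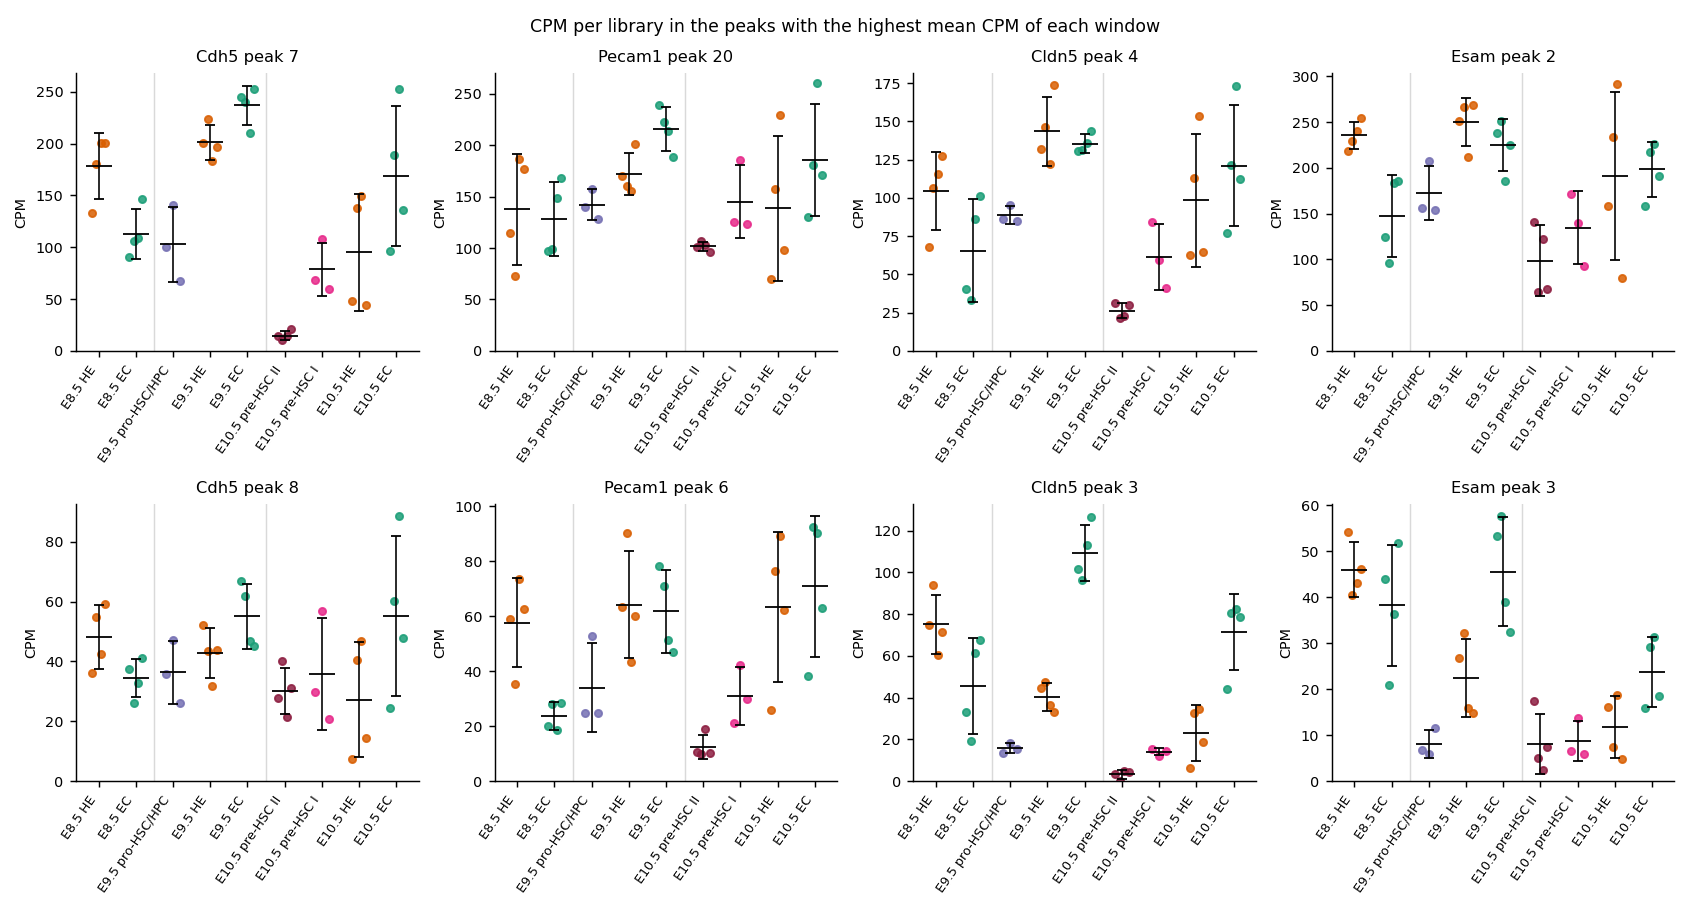
CPM per library in the 9 groups at the 2 peaks of each window with the highest mean CPM; points are libraries, bars the mean ± SD. E10.5 pre-HSC II is the lowest group at Cdh5 peak 7 (14.8 CPM), Cldn5 peak 4 (26.2 CPM) and Cldn5 peak 3 (3.18 CPM), and also at Pecam1 peak 20 (102 CPM) and Esam peak 2 (98.5 CPM).

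Counted over the windows, E10.5 pre-HSC II against EC gave the most calls. Of 51 members tested 21 were called, 1 higher and 20 lower, or 41.2%, against 25.3% of all peaks tested. Of all peaks 16.2% were called lower and 9.13% higher. The calls comprised 6 of 17 members at Cdh5, 10 of 19 at Pecam1, 2 of 7 at Cldn5 and 3 of 8 at Esam. The median log2 fold change of the members was -0.88, against -0.14 over all peaks. With RLE size factors these medians were -0.59 and 0.13, and 2 members were called higher and 17 lower. With every library thinned to the smallest total, 9 were called, 1 higher and 8 lower.

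Pre-HSC II against pre-HSC I gave 7 calls, all lower, or 13.7%, against 5.15% of all peaks (0.852% higher, 4.29% lower). This count depended on the scaling: RLE size factors gave 1 higher and 2 lower, cyclic loess 1 lower, and DESeq2 1 higher and 4 lower. The members' median was -0.24 (-0.17 over all peaks) and turned to 0.03 with RLE (0.11 over all peaks), so no direction for the members as a group is read from it. The count was 3 on leaving out pre-HSC I library 1, 4 on leaving out pre-HSC I library 2, 3 on leaving out pre-HSC II library 1 and 2 on leaving out pre-HSC II library 2.

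Pre-HSC I against EC gave 10 calls, 1 higher (Cldn5 peak 7) and 9 lower, or 19.6%, against 5.91% of all peaks (2.19% higher, 3.72% lower), with a members' median of -0.61 against 0.05 over all peaks. Leaving out EC library 2 gave 5, leaving out pre-HSC I library 1 gave 4 and leaving out library 4 of pre-HSC I gave 3. Pre-HSC I against HE gave 0 calls by edgeR (0.079% of all peaks, 0.0656% higher and 0.0134% lower), with 4 members at an unadjusted p under 0.05, and DESeq2 called 1. Pro-HSC/HPC against EC gave 9 calls, 2 higher (Cldn5 peak 7 and Pecam1 peak 18) and 7 lower, or 17.6%, against 11.8% of all peaks (5.05% higher, 6.8% lower). Pro-HSC/HPC against HE gave 2, both lower (Cldn5 peak 3 and Esam peak 3), against 1.74% of all peaks (0.644% higher, 1.1% lower). Without HE library 1 or 2 or pro-HSC/HPC library 1 it gave 0, and without pro-HSC/HPC library 3 it gave 1.

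HE against EC at E8.5 gave 3 calls, all higher (Cdh5 peak 3, Pecam1 peaks 6 and 8), against 1.44% of all peaks (1.31% higher, 0.13% lower). The count was 0 or 1 without any single E8.5 library other than EC library 4 or HE library 2, and 0 without E8.5 libraries 1 and 2. At E9.5 it gave 2, Cldn5 peak 7 higher and Cldn5 peak 3 lower, against 2.58% of all peaks (1.36% higher, 1.21% lower), and cyclic loess gave 1 higher and 2 lower. At E10.5 it gave the same 2 peaks in the same directions, against 2.28% of all peaks (0.717% higher, 1.57% lower), and 1 higher and 2 lower with cyclic loess. With the replicate number as a block, which pairs the E10.5 HE and EC pools, 6 were called, 1 higher and 5 lower. Without EC library 1 the E10.5 count was 5, and without HE library 3 it was 6.

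Over days, E9.5 EC against E8.5 EC gave 7 calls, all higher, or 13.7%, against 11.1% of all peaks (6.49% higher, 4.59% lower). RLE gave 7 higher and 1 lower, and DESeq2 7 higher and 2 lower. The count was 1 without E8.5 libraries 1 and 2 and 4 without the E9.5 libraries high in the chromosome X peak. E10.5 EC against E9.5 EC gave 0 calls by edgeR (0.316% of all peaks, 0.0671% higher and 0.249% lower) and 0 by DESeq2, with 7 members at an unadjusted p under 0.05. In HE, E9.5 against E8.5 gave 1 call, Cldn5 peak 7, against 2.14% of all peaks (0.893% higher, 1.24% lower), with 1 higher and 2 lower by RLE and 1 higher and 1 lower by cyclic loess. E10.5 HE against E9.5 HE gave 2 calls, Cdh5 peak 7 and Esam peak 5, both lower, against 0.557% of all peaks (0.0626% higher, 0.495% lower). Esam peak 5 (chr9:37348309-37348760) had 0.806, 2.04, 1.34 and 0.806 CPM in E10.5 HE, against 8.19, 9.97, 9.12 and 8.61 CPM in E9.5 HE (-2.69 ± 0.69, edgeR adjusted p 0.0462). Its call was lost under 10 of 16 alternatives (edgeR adjusted p 0.0675 to 0.392). The count was 0 without any 1 E9.5 HE library and without E10.5 HE library 1 or 4.

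**Figure D5:**
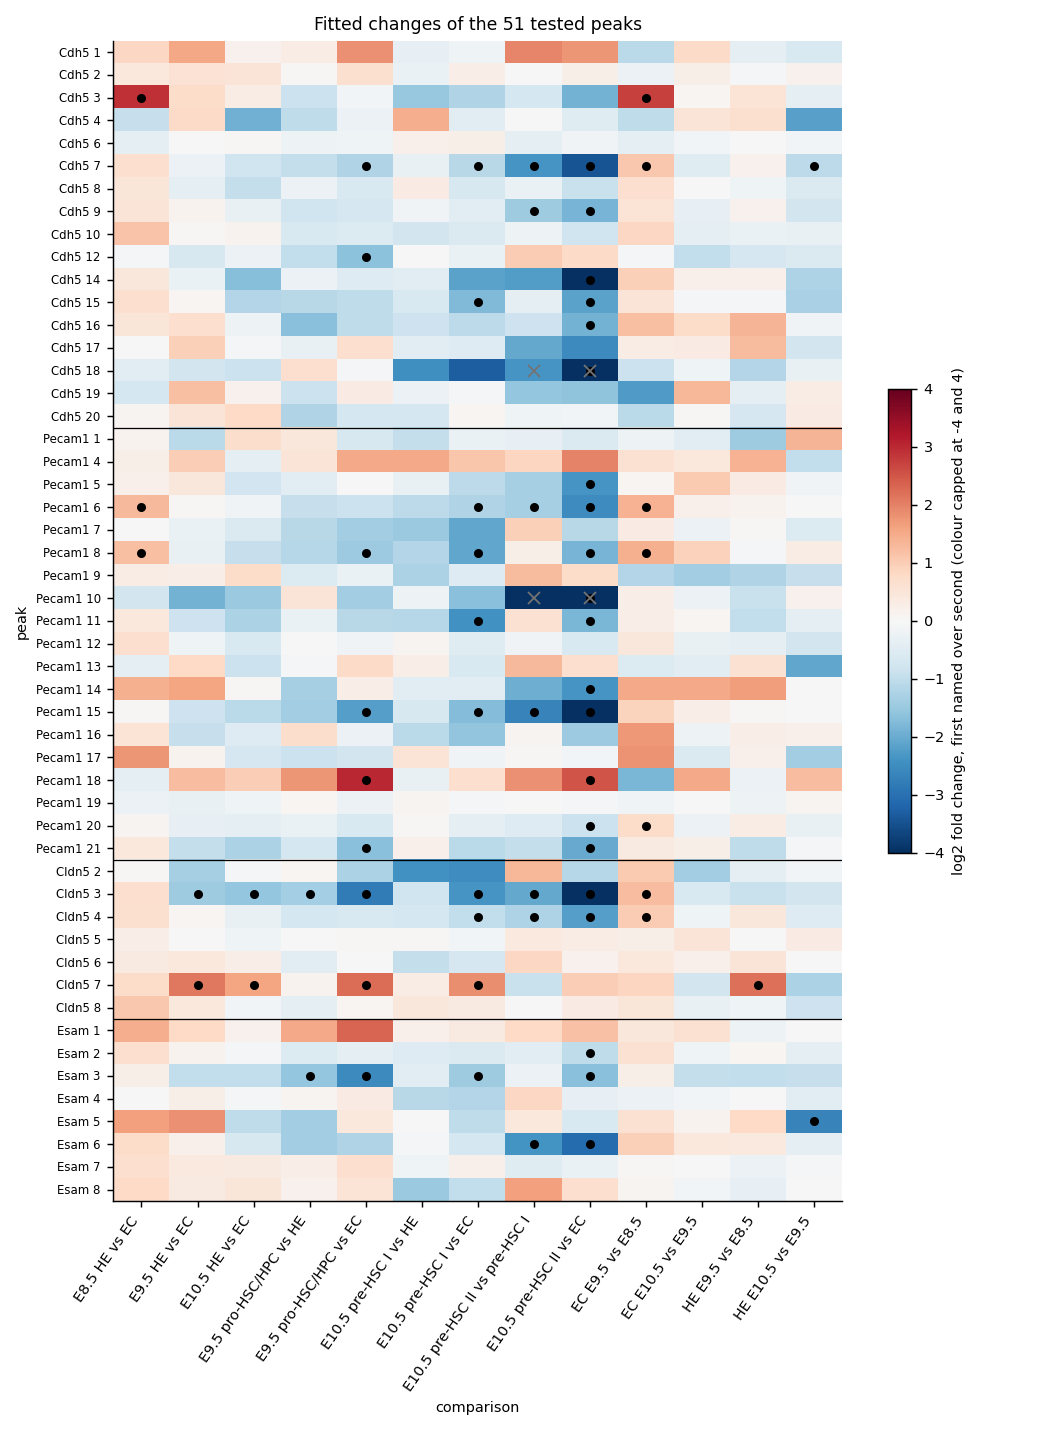
Fitted log2 fold change (first named group over the second) of the 51 tested peaks in 13 comparisons, with colour capped at -4 and 4; dots mark peaks called at an adjusted p under 0.05 and crosses mark comparisons in which 1 group held 0 counts, where the fitted value is no estimate of size. Lower calls gather in the column of pre-HSC II against EC (20 lower, 1 higher), and Cldn5 peaks 3 and 7 take opposite colours in the HE and EC columns of E9.5 and E10.5.

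The change of the HE-EC difference between days was tested directly. Between E8.5 and E9.5 it was called at 2 members, both lower at E9.5, against 1.5% of all peaks (0.282% higher, 1.21% lower). At Cldn5 peak 3 the HE-EC difference was 2.10 lower on the log2 scale at E9.5 than at E8.5 (-2.10 ± 0.41, edgeR adjusted p 0.00317), where E8.5 HE had 74.7, 94.0, 60.3 and 71.3 CPM and E8.5 EC had 33.2, 19.2, 61.3 and 67.7 CPM. It was -1.40 (edgeR adjusted p 0.336) without E8.5 libraries 1 and 2 and -1.89 (edgeR adjusted p 0.094) without the E9.5 libraries high in the chromosome X peak. At Pecam1 peak 8 it was -1.51 ± 0.43 (edgeR adjusted p 0.0498), and the removal of any of 13 of the 16 libraries ended the call (edgeR adjusted p 0.129 at most); only E8.5 EC library 4 and E9.5 HE libraries 2 and 4 could be left out with the call kept. Cyclic loess and both removals of sets of libraries ended it too (edgeR adjusted p 0.442 at most). Between E9.5 and E10.5 edgeR and DESeq2 called 0 members (0% of all peaks by edgeR), with 3 at an unadjusted p under 0.05.

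Across the 34 samples of the fit the leading peaks varied together to different degrees. As a description over points that share libraries and depth, Pearson's r of log2 CPM of Cdh5 peak 7 was 0.89 with Cldn5 peak 4, 0.81 with Esam peak 2 and 0.67 with Pecam1 peak 20. Its closest peak in the other windows was Cldn5 peak 3 (r = 0.90) and in its own window Cdh5 peak 9 (r = 0.86). The median over the 16 other tested members of its own window was 0.48 and over the 34 of the other windows 0.41. Outside the windows the peak most like Cdh5 peak 7 lay at chr3:115411497-115413161 (r = 0.97). The peak most like Pecam1 peak 20 lay at chr11:69221803-69225659 (r = 0.90), that most like Cldn5 peak 4 at chr8:123786350-123787485 (r = 0.94) and that most like Esam peak 2 at chr4:82081287-82082955 (r = 0.93).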

How the data were processed

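Per the labels' protocols, nuclei of 1500 sorted cells were tagmented and libraries amplified over 13 PCR cycles. The deposited table holds raw read counts per peak for 35 libraries on mm9, made by the authors; the submitters' processing notes name DiffBind 1.14.6, MACS2 2.0.1, bedtools 2.17.0, Bowtie 1.0.0, deepTools, SAMtools and Trim Galore 0.3.1. The sources used here do not say whether peaks were called per library or on pooled reads, or whether cut sites were shifted. Of counts from 10 to 49, 54.1% to 78.2% per library were even. The series' design text calls the replicates biological and does not tie pools to litters.

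Counts were fitted with edgeR 4.0.16 in R 4.3.3 (TMM, filterByExpr by group, quasi-likelihood F test, two-sided) in 1 model of 34 samples and 9 groups with 25 residual degrees of freedom. The filter removed 8910 of 76018 peaks. Benjamini-Hochberg adjustment covered all peaks tested. SE is the log2 fold change over the square root of F. The scripts were tested on simulated counts. Alternatives were RLE size factors, cyclic loess offsets (limma 3.58.1), DESeq2 1.42.0, no filter, thinning to the smallest total, fits of only the groups compared without and with a replicate block, and the removal of libraries singly or in the sets named. Same-numbered pools deviated together in every pair for E10.5 HE against EC alone (r 0.127 to 0.348, each of 4 best with its own number); the pairing comes from these correlations, not the labels. Comparisons with a group in common share its libraries, and no overlap between them is reported.

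Peaks given with values are the 2 with the highest mean CPM per window, the called member with the smallest adjusted p per window, comparison and direction, and the 3 least and 3 most variable members averaging at least 10 CPM. Pecam1 peak 10, Cdh5 peak 9 and the second calls named in the comparisons were added after their values were seen. For likeness, log2 CPM used a pseudocount of 1. The members, lists, tests and alternatives were chosen with earlier results of these data known. Other junction genes and blood markers were not analysed here, since no mm9 annotation was used. The motifs were chosen with the promoter in view.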

Additional observations from a re-analysis of the deposited data

Results flagged for a closer look

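Within groups of 4 libraries, 154 sets of values were examined for 1 library far from the others, and 5 stood out, where chance gives about 1 in 20. At Pecam1 peak 6, E10.5 pre-HSC II library 3 had 19.1 CPM, and the other 3 had 10.0 to 10.4 CPM. At Cldn5 peak 3, E10.5 EC library 1 had 44.3 CPM, and the others had 78.5 to 82.3 CPM. At Cldn5 peak 7, E8.5 EC library 1 had 2.89 CPM, and the others had 7.80 to 8.71 CPM. At Esam peak 6, E9.5 HE library 3 had 13.1 CPM, and the others had 16.5 to 17.2 CPM. Summed over the Cdh5 window, E8.5 EC library 4 had 351 CPM, and the others had 258 to 267 CPM.

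The HE-EC difference changed between days at 2 peaks, by a test of that change (edgeR). It was 2.10 lower on the log2 scale at E9.5 than at E8.5 at Cldn5 peak 3 (-2.10, adjusted p 0.00317) and was lower by a log2 difference of -1.51 at Pecam1 peak 8 (adjusted p 0.0498). The call at Cldn5 peak 3 was lost under 2 of 25 alternatives (edgeR adjusted p 0.094 and 0.336). That at Pecam1 peak 8 was lost under 16 of 25 (edgeR adjusted p 0.053 to 0.442).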

How the results depend on the processing

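Each comparison's count of called members was recomputed under each alternative; the cause of a change was not tested. Against counts of 3, 2, 2, 2, 9, 0, 10, 7, 21, 7, 0, 1, 2, 2 and 0, in the order used here, the counts that moved by over 1.5 times were these. HE against EC at E8.5 gave 5 with only the groups compared, 6 with the replicate block and 0 without the shallow E8.5 libraries. At E9.5 it gave 5 by DESeq2, 8 with only the groups compared, 9 with the block and 0 without the libraries high in a chromosome X peak. At E10.5 it gave 1 thinned, 1 without the shallow HE libraries, 0 with only the groups compared (10 at an unadjusted p under 0.05) and 6 with the block. Pro-HSC/HPC against HE gave 4 by DESeq2, 0 thinned, 11 with only the groups compared and 9 with the block; against EC it gave 5 thinned and 14 in both fits of the groups alone. Pre-HSC I against HE gave 1 by DESeq2, 1 with libraries 2 and 3 kept apart and 5 without the shallow HE libraries; against EC it gave 4 thinned. Pre-HSC II against pre-HSC I gave 3 with RLE, 3 thinned, and 1 with cyclic loess and in both fits of the groups alone; against EC it gave 9 thinned and 13 with the block. EC at E9.5 against E8.5 gave 3 thinned, 1 without the shallow E8.5 libraries and 4 without the libraries high in a chromosome X peak; at E10.5 against E9.5 it gave 2 in both fits of the groups alone. HE at E9.5 against E8.5 gave 3 with RLE, by DESeq2 and thinned, 2 with cyclic loess and 7 in both fits of the groups alone; at E10.5 against E9.5 it gave 1 thinned, 1 with only the groups compared, and 0 with the block, without the libraries high in a chromosome X peak and without the shallow HE libraries. The HE-EC difference at E9.5 against E8.5 gave 1 with cyclic loess, 0 without the shallow E8.5 libraries, 0 without the libraries high in a chromosome X peak and 6 in both fits of the groups alone.

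With 1 library left out at a time, counts ran from 0 to 2 for HE against EC at E8.5, 2 to 2 at E9.5 and 2 to 6 at E10.5; 0 to 3 for pro-HSC/HPC against HE and 7 to 10 against EC; 0 to 0 for pre-HSC I against HE and 3 to 10 against EC; 2 to 5 for pre-HSC II against pre-HSC I and 17 to 22 against EC; 5 to 8 and 0 to 0 for EC over days; 1 to 1 and 0 to 3 for HE over days; and 1 to 2 and 0 to 0 for the HE-EC difference. For the peaks named with a call, 36 results under 573 alternatives kept direction in all, with 466 still called, 107 no longer called and 0 reversed. Except for E10.5 HE against EC, not every same-numbered pair correlated above 0.1. As a hint from the data, each of 3 pro-HSC/HPC pools matched best with its own HE number, and 3 of 4 did in E9.5 HE against EC. Depth limits pre-HSC II libraries 1 to 3 most (456770 to 701221 counts).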
